A study of Homo sapiens with 4 samples.

Results

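The IFIT and IFITM genes are 2 families of interferon-induced antiviral genes. They were followed in RKO cells, a poorly differentiated human colon carcinoma line, with and without overexpression of HADH-S, which the series title describes as a nuclear isoform of the mitochondrial beta-oxidation enzyme HADH. Members were taken by symbol: IFIT1, IFIT2, IFIT3 and IFIT5, and IFITM1, IFITM2 and IFITM3. All 7 were found, among 13092 genes listed in either of 2 RNA libraries. The first library came from RKO cells with the genotype HADH-S overexpression, and the second from RKO cells with the genotype WT, called the control here. The labels name neither the vector nor the duration of overexpression, and do not say whether the control received a vector. There was 1 library per condition and no replicate, so no difference below has a test, and each describes these 2 libraries.

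Interferons bind cell-surface receptors whose JAK and TYK kinases activate factors of the STAT family. Together with IRF9 these form ISGF3, a transcription factor that binds the interferon-stimulated response element in the promoters of its target genes. IFIT proteins are built from tetratricopeptide repeats, and some of them bind RNA that lacks the marks of the cell's own messages. IFITM proteins are small membrane proteins that hinder the fusion of enveloped viruses with the cell's membranes. In epithelial cells both families are held at a low or moderate level until an interferon or an RNA sensor acts, and some members keep a considerable basal level.

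The promoters of the members are shown first, because every member with a promoter in the RefSeq-derived table (GRCh38.p14) held the core of this response element. The table gives the 250 bases before and the first 50 bases after a gene's start. It has windows for 5 of the 7 members, with 2 starts for IFIT3. The stretches are printed on the gene's strand, beginning 20 bases before the first match. The capitals mark the core, which is GAAA, any 2 bases and GAAA again or, where the element lies on the other strand, TTTC, any 2 bases and TTTC. IFIT1B, a relative in the same cluster that was listed in neither library, is shown too, by the 100 bases before its start. Its window lacks the core, as most promoter windows do, and why IFIT1B was not listed was not tested.
IFIT1, chr10:89392487-89392622, plus strand: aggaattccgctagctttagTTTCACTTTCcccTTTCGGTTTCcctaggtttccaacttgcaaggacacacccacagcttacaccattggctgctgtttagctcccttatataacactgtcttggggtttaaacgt
IFIT3, first start, chr10:89327821-89327996, plus strand: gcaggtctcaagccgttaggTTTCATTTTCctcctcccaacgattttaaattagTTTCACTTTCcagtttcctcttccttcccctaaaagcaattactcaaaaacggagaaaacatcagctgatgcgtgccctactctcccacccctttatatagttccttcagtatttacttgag
IFIT3, second start, chr10:89332415-89332528, plus strand: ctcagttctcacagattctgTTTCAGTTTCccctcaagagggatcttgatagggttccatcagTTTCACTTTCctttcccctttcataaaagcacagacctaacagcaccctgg
IFIT5, chr10:89414503-89414573, plus strand: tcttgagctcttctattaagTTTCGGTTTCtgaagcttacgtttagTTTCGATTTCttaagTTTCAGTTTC
IFITM1, chr11:313980-314043, plus strand: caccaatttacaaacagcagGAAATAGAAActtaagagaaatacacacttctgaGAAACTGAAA
IFITM3, chr11:320861-320932, minus strand: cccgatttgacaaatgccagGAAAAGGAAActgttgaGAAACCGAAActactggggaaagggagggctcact
IFIT1B, chr10:89377956-89378055, plus strand: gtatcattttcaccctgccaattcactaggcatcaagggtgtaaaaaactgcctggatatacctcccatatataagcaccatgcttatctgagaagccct

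This core, searched on both strands with overlaps allowed, was present in all 6 windows of the 5 members, and each window held at least 2 copies. Of the 35116 promoter windows in the table, 3.57% held at least 1 copy and 0.259% held at least 2. The families differed in the orientation of the element. On the gene's strand every copy in the IFIT windows was of the TTTC form, and every copy in the IFITM windows was of the GAAA form. The copies in IFIT1 began 116 and 103 bases before the start, whereas those in IFITM1 began 40 and 6 bases before it and those in IFITM3 began 52 and 35 bases before it. IFIT5 carried 3 copies, which began 45, 19 and 4 bases before its start. The longer form, with CT after the second GAAA, was also present in all 6 windows, against 0.273% of all windows. The gamma-activated site TTCNNNGAA was found in the IFITM1 window only, where its last bases overlap the second response element core, and 7.66% of all windows held it. No match was found for the response element core in the windows of IFIT1B and IFITM5. IFIT2 and IFITM2 have no entry in the table.

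All 7 members were higher with HADH-S, by factors from 1.10 for IFITM2 to 6.08 for IFIT1. Of all genes averaging at least 1 RPKM, 52.2% were higher. Levels are RPKM, the reads of a gene divided by its transcript length and by the reads assigned to all listed genes. Ratios of RPKM carry a 95% exact conditional counting interval from the recovered reads, which covers counting error only. IFIT1, IFITM1 and IFIT3 passed the rule of size, a log2 value of at least 1, where this value is log2((RPKM + 1) HADH-S / (RPKM + 1) control). That limit was reached by 0.300% of the 10331 genes whose RPKM averaged at least 1 over both libraries. In the other direction, -1 or less, were 0 members and 0.0484% of genes. The counting interval lay above 1 for 7 of 7 members, against 13.8% of those genes, and below 1 for 0 members and 11.6% of genes. IFIT2, at 0.778 RPKM in the control, averaged at least 1 RPKM only through its level with HADH-S. The median log2 value of the members was 0.70, and that of the 10331 genes was 0.01. These are bulk levels, so more cells carrying a transcript and more transcript per cell cannot be told apart.

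**Figure D1:**
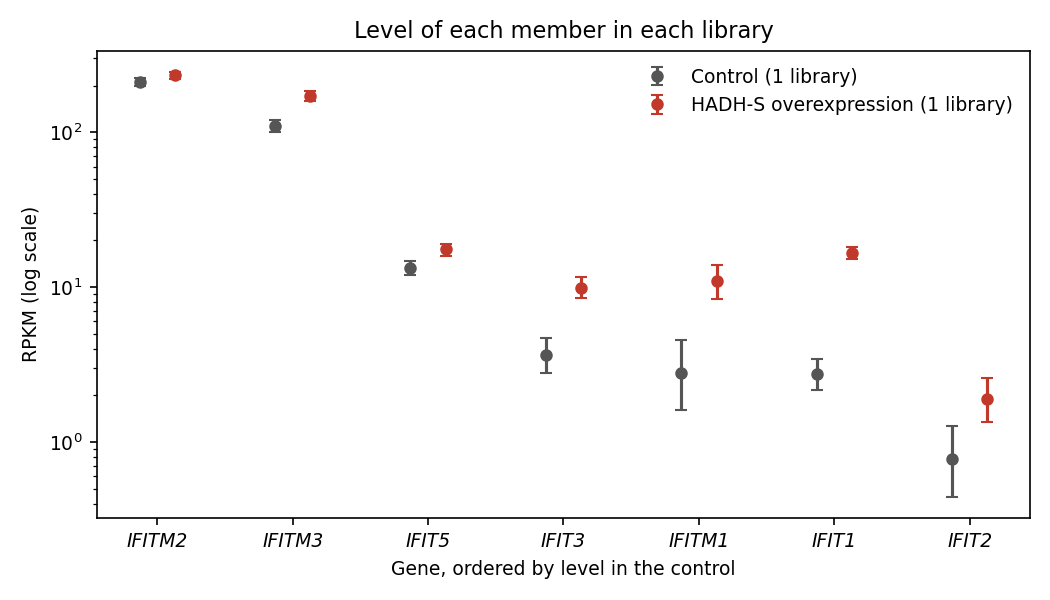
RPKM of the 7 members (log axis) in the control library and in the HADH-S library, ordered by level in the control; bars are exact Poisson 95% intervals of the reads. The control points run from 0.778 RPKM for IFIT2 to 211 RPKM for IFITM2, and the point with HADH-S is the higher of each pair.

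IFIT1 had the highest ratio of the 7 members, although counting error did not separate it from that of IFITM1. Its product recognises capped RNA that lacks ribose methylation next to the cap, and blocks its translation. IFIT1 (ENSG00000185745) lies at 89392623 to 89406487 on chromosome 10 of GRCh38.p14. Its 500 reads in the HADH-S library gave 16.7 RPKM, and its 80 reads in the control gave 2.75 RPKM. The resulting ratio of 6.08 (4.79 to 7.80) equals a log2 value of 2.24 once the pseudocount is added. By log2 value it ranked 3rd of the 10331 genes. Of 4316 genes with a mean RPKM within 2-fold of its own, 0 had a log2 value as large.

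IFIT3, which binds IFIT1 and stabilises its hold on RNA, had the next ratio within the family, not separated from that of IFIT2 by counting error. IFIT3 (ENSG00000119917, from 89327997 to 89340968) was at 9.94 RPKM against 3.67 RPKM, from 170 and 61 reads. The ratio was 2.71 (2.01 to 3.69) and the log2 value 1.23, and 3 of 3851 genes at a like level had a value as large. With a pseudocount of 5 its log2 value was 0.79, under the size limit.

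IFIT2, a partner of IFIT1 and IFIT3 in the same complexes, was the least abundant member in both libraries. IFIT2 (ENSG00000119922, from 89302046 to 89309271) had 1.89 RPKM with HADH-S against 0.778 RPKM, from only 40 and 16 reads. Its ratio of 2.43 had a wide interval, 1.33 to 4.65. The log2 value of 0.70 missed the size limit and was 1.18 with a pseudocount of 0.1, since a pseudocount of 1 exceeds its level in the control. Of 1159 genes at a like level, 30 had a log2 value as large.

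IFIT5, a monomeric family member that binds uncapped triphosphate ends of RNA, had the lowest ratio among the IFIT genes. Counting error did not separate this ratio from that of IFIT2, which exceeded it by 1.86 (0.999 to 3.61). IFIT5 (ENSG00000152778, from 89414568 to 89420997) was at 17.5 RPKM against 13.4 RPKM, from 491 and 365 reads, with a ratio of 1.31 (1.14 to 1.502). Its log2 value of 0.36 was matched or exceeded by 183 of 4214 genes at a like level. In the control IFIT5 alone made up 65.0% of the summed RPKM of the IFIT genes, and with HADH-S it made up 38.0%. The share of IFIT1 was 13.3% in the control and 36.3% with HADH-S. The family was thus led by IFIT5 in the control, and by IFIT5 and IFIT1 together with HADH-S.

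Among the IFITM genes the order was different, because the least abundant member differed most. IFITM1, which acts mainly at the cell surface, had 10.9 RPKM with HADH-S against 2.80 RPKM (ENSG00000185885, on chromosome 11, 314040 to 315272). This rests on 64 and 16 reads, and the ratio of 3.89 has an interval of 2.22 to 7.21. The log2 value was 1.65, rank 9 of the 10331 genes, and 2 of 3857 genes at a like level had one as large. IFITM1 made up 2.63% of the family's summed RPKM with HADH-S and 0.866% in the control.

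IFITM3, which sits in late endosomes and is known for restricting influenza virus, had the largest gain in absolute level. IFITM3 (ENSG00000142089, from 319676 to 320860) was at 171 RPKM against 109 RPKM, from 729 and 453 reads, a difference of 61.9 RPKM. The ratio was 1.57 (1.39 to 1.76) and the log2 value 0.64. That value is under the size limit, but only 1 of 803 genes at a like level had one as large. For comparison, the 4 IFIT genes together gained 25.5 RPKM.

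IFITM2, a close endosomal relative of IFITM3, was the most abundant member and had the smallest ratio. IFITM2 (ENSG00000185201, from 307816 to 309395) had 232 RPKM with HADH-S against 211 RPKM, from 1444 and 1274 reads. The ratio was 1.10 (1.02 to 1.19) and the log2 value 0.14, and 82 of 462 genes at a like level had a value as large. A difference of this size is common among genes of its level.

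**Figure D2:**
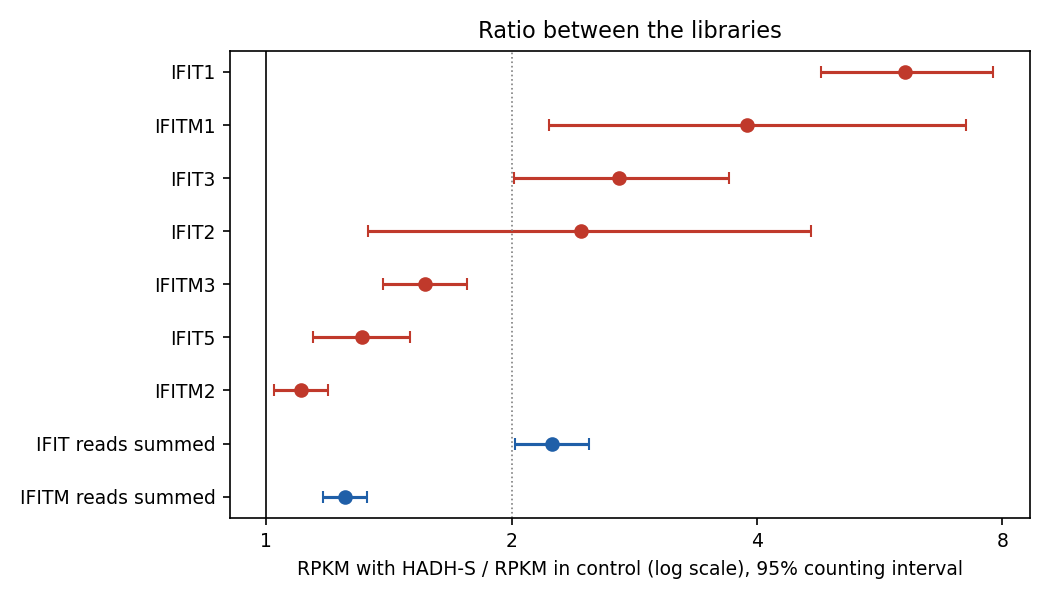
Ratio of HADH-S to control (log axis) with 95% counting intervals. For each member it is the ratio of RPKM, and for each family that of summed reads scaled by the reads of each library. The solid line marks 1 and the dotted line 2. The ratios run from 1.10 for IFITM2 to 6.08 for IFIT1, with all intervals above 1.

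Ratios of family sums are of summed reads, scaled by the reads of each library. Summed over the family, the IFIT genes held 1201 reads in the HADH-S library and 522 in the other, a ratio of 2.24 (2.02 to 2.48). The IFITM genes held 2237 and 1743 reads, a ratio of 1.25 (1.17 to 1.33). Each sum includes a member with many reads and a small ratio. Without IFIT5 the IFIT ratio was 4.40, and without IFITM2 the IFITM ratio was 1.64. The 7 genes together took up 0.0494% of reads with HADH-S (exact binomial 95% interval 0.0477% to 0.0510%) and 0.0334% in the control (0.0321% to 0.0348%). The members of each family are paralogs, and how reads alike between them were divided is not known. How alike their sequences are was not measured here. The sums are less affected by such a division.

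The members differed from each other in their ratios by more than counting error in 14 of 21 pairs. These intervals were not adjusted for the number of pairs. Pairs of other genes were not counted in this way, so 14 of 21 has no background and is not a trait of the families. The ratio of IFIT1 exceeded that of IFIT3 by a factor of 2.24 (1.51 to 3.32), that of IFIT5 by 4.64 (3.52 to 6.18) and that of IFITM2 by 5.51 (4.29 to 7.15). Against IFITM1 the factor was 1.56, with an interval of 0.801 to 2.90 that includes 1. IFIT3 and IFIT2 could not be separated either (1.11, interval 0.542 to 2.21). Within the IFITM family, IFITM1 exceeded IFITM3 by 2.48 (1.40 to 4.66) and IFITM3 exceeded IFITM2 by 1.42 (1.23 to 1.64). Set beside the response element cores printed above, IFIT5, with 3 copies, had a ratio of 1.31, and the genes with 2 copies in each window had ratios of 6.08 (IFIT1), 3.89 (IFITM1), 2.71 (IFIT3) and 1.57 (IFITM3). A relation between copies and ratios was not tested, and IFIT2 and IFITM2 have no window.

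Ordered by RPKM, the control levels were IFITM2, IFITM3, IFIT5, IFIT3, IFITM1, IFIT1 and IFIT2. The level of IFIT3 exceeded that of IFITM1 by 1.31 (0.746 to 2.44) and that of IFITM1 exceeded IFIT1 by 1.02 (0.556 to 1.76), so these 3 were not separated by counting error. With HADH-S the order was IFITM2, IFITM3, IFIT5, IFIT1, IFITM1, IFIT3 and IFIT2. There the levels of IFIT5 and IFIT1 differed by a factor of 1.05 (0.924 to 1.19), whereas IFIT1 exceeded IFITM1 by 1.53 (1.18 to 2.02). IFITM1 and IFIT3 differed by 1.10 (0.808 to 1.47). In both libraries the largest step lay between IFITM3 and IFIT5, by factors of 9.79 (8.72 to 11.0) with HADH-S and 8.18 (7.11 to 9.42) in the control.

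**Figure D3:**
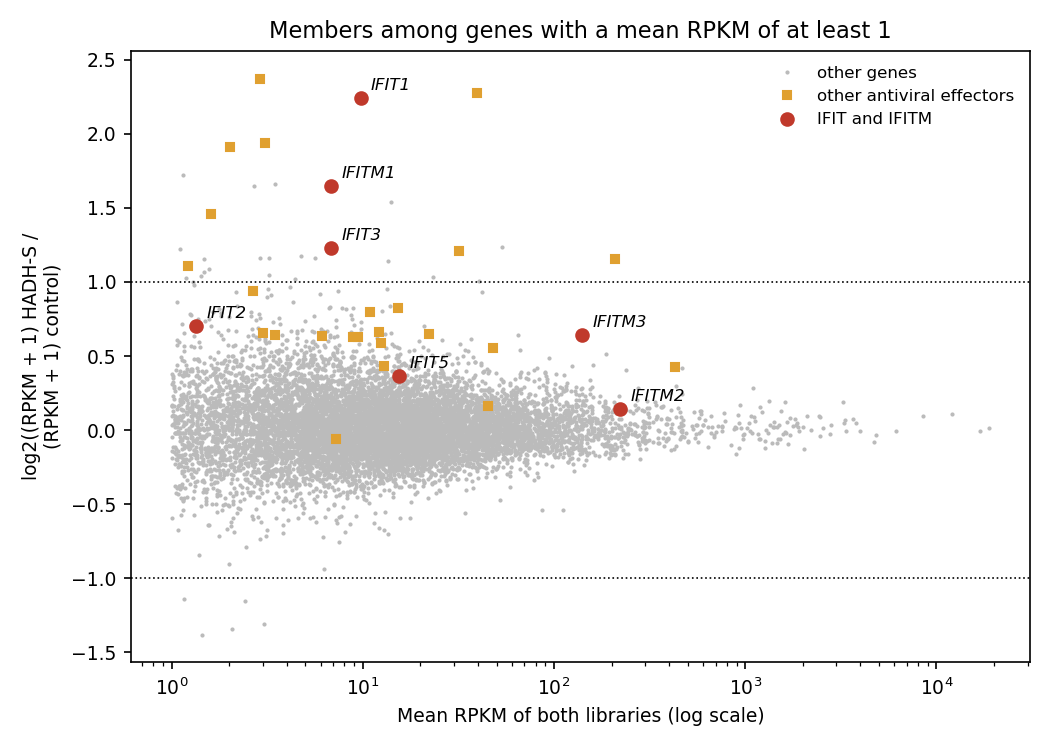
log2((RPKM + 1) HADH-S / (RPKM + 1) control) against mean RPKM (log axis) for the 10331 genes averaging at least 1 RPKM; members are red circles, 24 other antiviral effectors orange squares, and dotted lines mark the size limit of 1 in either direction. IFIT1, IFITM1 and IFIT3 lie above the upper line, and IFITM2, at 0.14, lies within the cloud of other genes.

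By a fixed rule, the genes nearest to each member past the size limit were taken as those with the smallest Euclidean distance in log2(RPKM + 1) over the 2 libraries, so likeness here means like levels only. For IFIT3 they were the RNA sensor gene RIGI (listed as DDX58), at 8.07 against 3.80 RPKM and a distance of 0.27, and MANEAL, at 8.77 against 4.51 RPKM and a distance of 0.29. For IFITM1 they were the interferon-induced helicase gene HELZ2, at 8.14 against 3.08 RPKM and a distance of 0.39, and again RIGI at 0.52. IFIT1 had no close neighbour. Its nearest genes, OGFOD3 (9.997 against 4.74 RPKM) and HELZ2, were at distances of 0.92 and 0.96.

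The other genes of the pathway were read from lists that run from ligand to effector. Among 22 interferon genes 20 were listed in neither library. The exceptions, chosen after their values were seen, were IFNB1 with 2 reads against 0 and IFNE with 4 reads against 0. Both are too few to separate the libraries. The counting interval of the ratio started at 0.183 for IFNB1 and at 0.642 for IFNE.

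Of 21 genes for interferon receptors, their kinases and the factors downstream, the counting interval lay above 1 for 8, below 1 for 3, and included 1 for 10. Over all genes averaging at least 1 RPKM, it lay above 1 for 13.8% and below 1 for 11.6%. The median log2 value of the list was -0.03. The 6 receptor chains, summarised after their values were seen, had ratios from 0.786 for IFNLR1 to 0.901 for IFNAR1, and for 4 of them the interval included 1. IRF9, the DNA-binding subunit of ISGF3, was at 21.5 against 6.72 RPKM (ratio 3.19, 2.45 to 4.20). It alone on this list passed the size limit, which 0.300% of all genes averaging at least 1 RPKM reached. SOCS1, a feedback inhibitor of JAK kinases, was at 1.85 against 0.662 RPKM, from 23 and 8 reads (2.80, 1.21 to 7.23). It passed the filter only through its level with HADH-S, so the count above 1 is not independent of the filter. The type I receptor chains IFNAR1 and IFNAR2, also picked once their values were known, had ratios of 0.901 (0.818 to 0.992) and 0.845 (0.705 to 1.01).

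Of 9 measured genes of RNA sensing, the interval lay above 1 for 4 and below 1 for 0, with a median log2 value of 0.16. The shares over all genes averaging at least 1 RPKM were 13.8% above and 11.6% below. The sensors RIGI and IFIH1, which detect RNA with triphosphate ends and long double-stranded RNA, had ratios of 2.13 (1.70 to 2.66) and 2.12 (1.58 to 2.87). EIF2AK2, the RNA-activated kinase PKR, had a ratio of 1.30 (1.22 to 1.40).

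Among 24 measured antiviral effectors outside the 2 families, the interval lay above 1 for 22 and below 1 for 0, and 8 passed the size limit. Over all genes averaging at least 1 RPKM, the corresponding shares were 13.8%, 11.6% and 0.300%. Of the 8, 5 were below 1 RPKM in the control and passed the filter only through their level with HADH-S, so these counts are not independent of the filter. The list's median log2 value of 0.66 stood beside the members' 0.70. The values with the largest size were 2.37 for OAS1, an activator of RNase L with only 65 reads against 3, 2.27 for IFI6 and 1.94 for RSAD2 (viperin). IFIT1, at 2.24, lay between IFI6 and RSAD2.

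**Figure D4:**
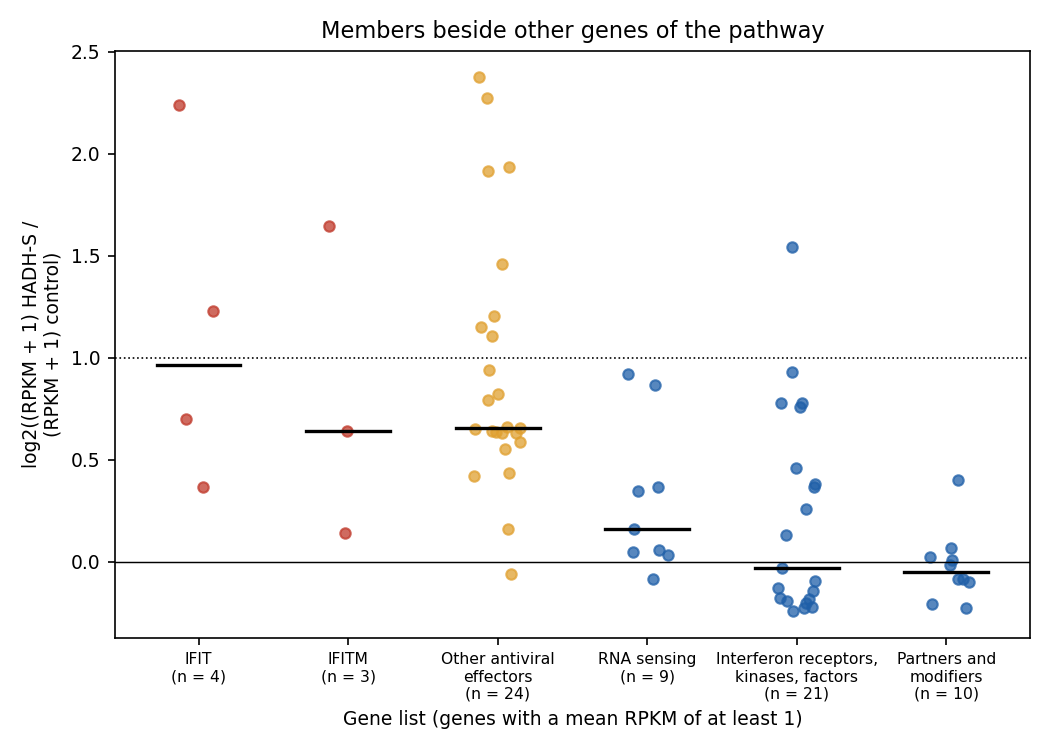
log2((RPKM + 1) HADH-S / (RPKM + 1) control) of each gene averaging at least 1 RPKM in the IFIT family, the IFITM family and 4 other gene lists, with sideways scatter for legibility; black bars are medians and the dotted line marks the size limit. The medians are 0.97 for IFIT, 0.64 for IFITM and 0.66 for other effectors, against -0.05 for partners and modifiers.

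Genes whose products work with or modify IFIT and IFITM proteins mostly had ratios near 1. Of 10 such genes, the interval lay above 1 for 1, below 1 for 2 and included 1 for 7, with a median log2 value of -0.05. These counts are near the shares over all genes averaging at least 1 RPKM, 13.8% above and 11.6% below. The gene with its interval above 1 was CMTR1, the cap methyltransferase that adds the mark whose absence IFIT1 recognises. It was at 14.6 RPKM against 10.8 RPKM (ratio 1.35, 1.16 to 1.57). CMTR2 and RNMT, the other cap methyltransferases on the list, had ratios of 0.941 (0.865 to 1.02) and 0.988 (0.878 to 1.11). ZDHHC20, an enzyme that palmitoylates IFITM3, had a ratio of 0.851 (0.736 to 0.983), and NEDD4, the ubiquitin ligase that marks IFITM3 for turnover, 0.856 (0.764 to 0.959). SETD7, which methylates IFITM3, ZMPSTE24, VAPA, AP2M1 and VCP had ratios from 0.934 for VAPA to 1.05 for VCP. Of the family relatives, IFIT1B, IFITM4P and IFITM5 were listed in neither library, and IFITM10 had 0 reads against 2.

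The differences were also read against the genes beside each cluster. Of the 12 protein-coding genes nearest to the clusters, 3 on each side, 10 were listed and 8 averaged at least 1 RPKM. Of these 8, 0 passed the size limit, and the interval lay above 1 for 1, below 1 for 2 and included 1 for 5. Over all genes averaging at least 1 RPKM, 0.300% passed the size limit, and the interval lay above 1 for 13.8% and below 1 for 11.6%. With so few neighbours, these counts do not set them apart from other genes. The neighbour with its interval above 1 was LIPA, the lysosomal acid lipase, at 35.4 against 30.8 RPKM (ratio 1.15, 1.02 to 1.30). In RefSeq its longest extent, from 89213572 to 89414679, overlaps all 4 IFIT members. No source used here gives the strand setting of the counting, so reads that LIPA and the IFIT genes share cannot be told apart. FAS, the death receptor gene, had a ratio of 1.12 (0.924 to 1.35) and KIF20B, a mitotic kinesin, 0.883 (0.794 to 0.983). PANK1 was below 1 RPKM in both libraries, with 38 and 42 reads, and CH25H and SLC16A12 were listed in neither.

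Beside the IFITM cluster, the ratios were 1.01 (0.673 to 1.52) for PGGHG, 0.908 (0.837 to 0.986) for the proteasome gene PSMD13, 1.15 (0.885 to 1.503) for B4GALNT4, 0.995 (0.734 to 1.35) for the desmosomal PKP3 and 1.01 (0.775 to 1.30) for SIGIRR. NLRP6 had 1 read against 0. IFITM3 overlaps the non-coding antisense gene IFITM3-AS1, and the same limit of strand applies to it. Within the IFITM cluster itself, IFITM2, IFITM1 and IFITM3 lie in this order on the chromosome with ratios of 1.10, 3.89 and 1.57.

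**Figure D5:**
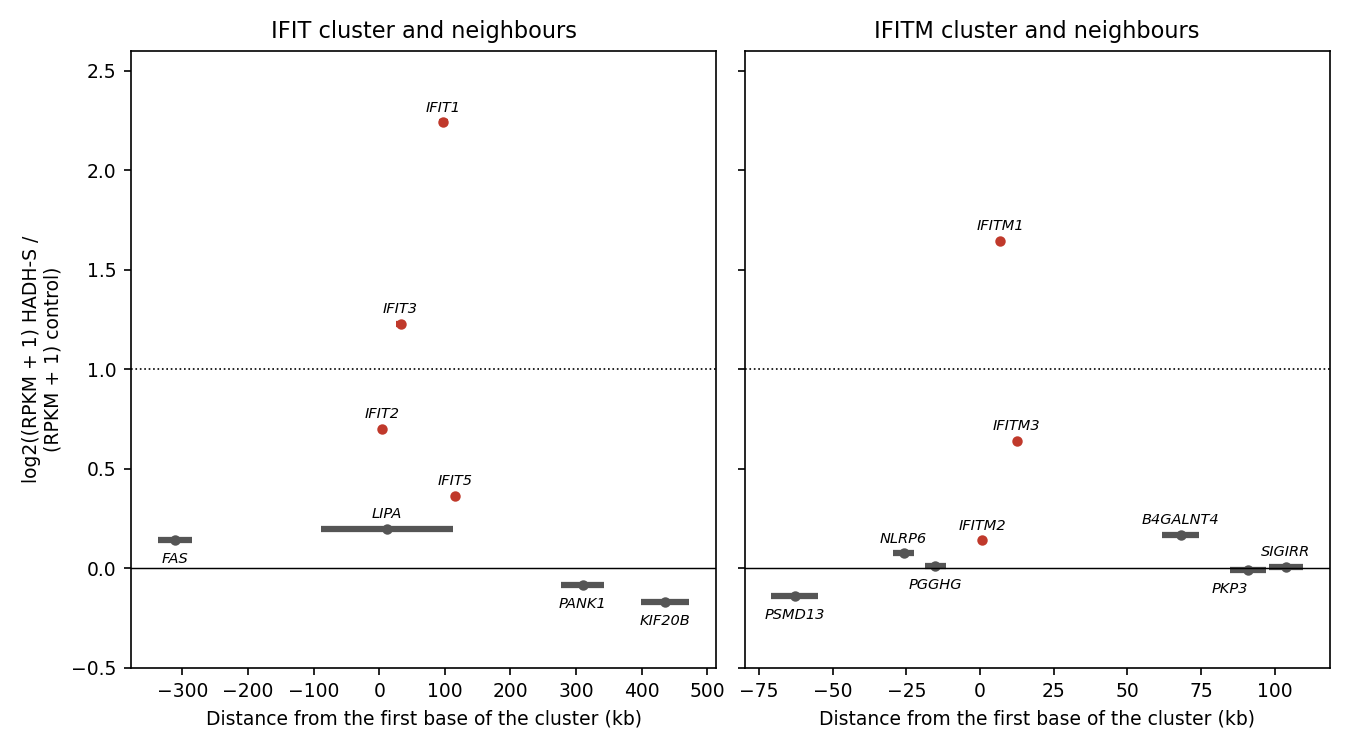
log2((RPKM + 1) HADH-S / (RPKM + 1) control) of members (red) and listed neighbouring genes (grey) against distance in kilobases from the first base of each cluster; horizontal bars span each gene and dots mark its midpoint. The members reach 2.24 (IFIT1) and 1.65 (IFITM1), while LIPA, at 0.20, is the highest neighbour.

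The HADH-S library held 6963608 reads and the control 6773421, and 3 reads of a transcript of median length corresponded to 0.137 and 0.141 RPKM. HADH, which checks the labels, had 54.4 RPKM against 26.5 RPKM (2.05, 1.79 to 2.35) and was higher in the library labelled as overexpressing. Values are given per gene, so transcripts of HADH-S and of other HADH isoforms cannot be told apart. Of 9 epithelial markers, 4 were listed, with summed levels of 111 and 106 RPKM, mostly KRT18, while CDH1, KRT19, KRT20, VIL1 and MUC2 were listed in neither library. Of the leukocyte markers 0 of 8 were listed, of the endothelial markers 0 of 4, and of the fibroblast markers 2 of 7, at summed levels of 0.0751 and 0.0553 RPKM.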

How the data were processed

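RNA from 2 RKO libraries was analysed. The authors deposited RPKM values, 1 for each gene, per the file headers, each row naming a symbol, a transcript and its length. Per the submitters' processing notes, shared by all samples, fastp 0.23.2, SAMtools 1.9 and GRCh38 were used. For the RNA aligner, counter and strand setting: not given in the sources used here. The chromatin immunoprecipitation and input samples were not analysed here.

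RPKM times transcript length gave whole reads for 100% of values (tolerance 0.01 reads). A gene listed in 1 table only was taken as 0 reads in the other. Ratios, exact conditional and Poisson intervals and log2 values with a pseudocount of 1 were computed with Python 3.11.15 and SciPy 1.17.1. The calculation was tried on simulated Poisson counts. These share the assumption of the intervals, so they check the calculation and not that assumption. With 1 library per condition no test was made. Intervals and floors cover counting error only, since without molecular identifiers several reads can come from 1 molecule.

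The members, lists and rules were chosen with earlier results of these data known. Named were all members, relatives, partners and neighbours, the 3 genes of each other list with the largest absolute log2 value, and the 2 genes nearest in level to each member past the size limit. Some of these genes are not reported here. All 7 members passed the filter of a mean RPKM of at least 1, IFIT2 while below 1 RPKM in the control. Coordinates and promoters are from RefSeq, GRCh38.p14. Alternatives were pseudocounts, 3 rescalings, filters, a fold of 1.5, family sums without the leading member and a longer motif. Protein sequences were not analysed here.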

Additional observations from a re-analysis of the deposited data

How the results depend on the processing

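No paired analysis was possible because each condition has 1 library, and for the same reason no replicate could be left out. All 7 members kept a positive log2 value under 3 rescalings, the smallest being 0.116 for IFITM2. The rescalings moved values little, and the share of all genes keeping their sign was not counted. The 3 other pseudocounts cannot change the sign of a log2 value, only its size. The number past the size limit was 3, except 4 with a pseudocount of 0.1 and 2 with 5, where IFIT1 was at 1.49 and IFITM1 at 1.03. The number of all genes past it, the background of that count, moved more. Higher genes went from 31 to 69 with a pseudocount of 0.1, 8 with 5, 12 at a mean RPKM of at least 5, 152 at a fold of 1.5, and 18 with at least 50 reads over both libraries, a setting chosen after seeing the data. Lower genes went from 5 to 15 with 0.1, 8 with 0.5, 9 without a filter, 45 at a fold of 1.5, and 0 with a pseudocount of 5, a mean RPKM of at least 5 or at least 50 reads. At a fold of 1.5, 5 members were higher, against 1.47% of genes. Of the family sums, the IFIT ratio was 4.40 without IFIT5 and the IFITM ratio 1.64 without IFITM2, and under the rescalings they were at least 2.20 and 1.23. The longer motif was in 0.273% of windows. Depth limits IFIT2 and IFITM1, each with 16 reads in the control.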

Other observations

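The response element core printed for the members was also counted in other genes, as a description of sequence. Of 8419 genes outside the families averaging at least 1 RPKM and present in the promoter table, 3.79% held it. Of the other antiviral effectors with a promoter in the table, 15 of 22 did, as did 3 of 8 RNA sensing genes, 1 of 15 genes for receptors, kinases and factors, and 0 of 9 partners and modifiers. Of genes outside the families past the size limit, 6 of 18 held it, and of 3547 genes with a log2 value between -0.1 and 0.1, 3.55% did. Many of the effectors are known interferon targets, so these shares are not independent of how the lists were made.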
